A study of Mus musculus with 10 samples.

Results

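The 29 genes described here are those of inhibitory signalling in the mouse hippocampus, chosen by gene name from the 24391 genes counted. They are 11 GABA-A receptor subunits, 2 GABA-B receptor subunits, 4 genes of GABA synthesis and transport, the scaffold gene Gphn, 6 peptides and proteins that mark interneuron classes, and 5 transcription factors of the interneuron lineage. RNA was sequenced from the bilateral whole hippocampus of 10 male mice of 10 to 14 weeks, 1 library per mouse, 4 days after subarachnoid hemorrhage (SAH) or the matching time in controls. All were of the strain that the study's methods spell C56BL/6J, from 1 batch, without drug treatment. In the 4 SAH mice (1 to 4), a filament pushed up the internal carotid artery under isoflurane pierced the circle of Willis on 1 side, and SAH mice were kept only where blood flow over the cortex then fell sharply. In the 3 Sham mice (5 to 7) the filament was advanced without piercing the vessel, and the 3 Naive mice (8 to 10) had no surgery, so that anaesthesia and neck surgery are shared by SAH and Sham but not by Naive. Sham and Naive mice together are called control (n = 6). Both hemispheres of a mouse were pooled, although the vessel was pierced on 1 side, and regions of the hippocampus were not separated.

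GABA is the main inhibitory transmitter of the hippocampus. Interneurons make it from glutamate with the glutamic acid decarboxylases Gad1 and Gad2, load it into vesicles and release it onto GABA-A receptors, which are chloride channels built of several subunits, and onto GABA-B receptors, which act through G proteins. Interneuron classes are told apart by the peptides and calcium-binding proteins they make, among them somatostatin (Sst), parvalbumin (Pvalb), vasoactive intestinal peptide (Vip), neuropeptide Y (Npy) and cholecystokinin (Cck), and the Dlx and Lhx6 transcription factors direct their birth and migration.

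Each library held between 19743388 and 27254655 counts on genes. Levels are given as CPM, the count of a gene relative to its TMM-normalised library, and, where genes are compared with one another, as RPKM, the CPM per 1000 bases of exon. The hippocampal excitatory markers were detected in every mouse, with 10 of 10 present and a sum of 7376 to 8656 CPM. Libraries differed in RNA of the choroid plexus, the tissue lining the ventricle beside the hippocampus. Its 9 markers summed to 1246 CPM in SAH mouse 3, 883 CPM in SAH mouse 4 and 850 CPM in Sham mouse 7, and to between 54.7 and 224 CPM in the other mice.

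Of the 29 genes, 28 passed the filter on low counts, and 2 of these 28 were lower in SAH than in control at an adjusted p under 0.10 (edgeR's quasi-likelihood test, Benjamini-Hochberg over all genes tested). These were Sst, the peptide of a large class of dendrite-targeting interneurons, and Dlx2, a homeobox factor of interneuron precursors. None was called higher. Among all 14993 genes tested, 4.68% were called, 3.13% as higher and 1.54% as lower, so that the share called lower was 7.14% here and rests on 2 genes. At an unadjusted p under 0.05 there were 5 of the 28, against 17.0% of all genes tested. Those 5 were Sst, Dlx2, Dlx5 and the vesicular GABA transporter Slc32a1, with lower values in SAH, and the receptor subunit Gabrb1, with higher ones. DESeq2 called Sst, Dlx2 and Dlx5 lower and none higher, beside 5.29% of all genes. In the bulk tissue, fewer cells of a type and less RNA per cell cannot be told apart.

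**Figure D1:**
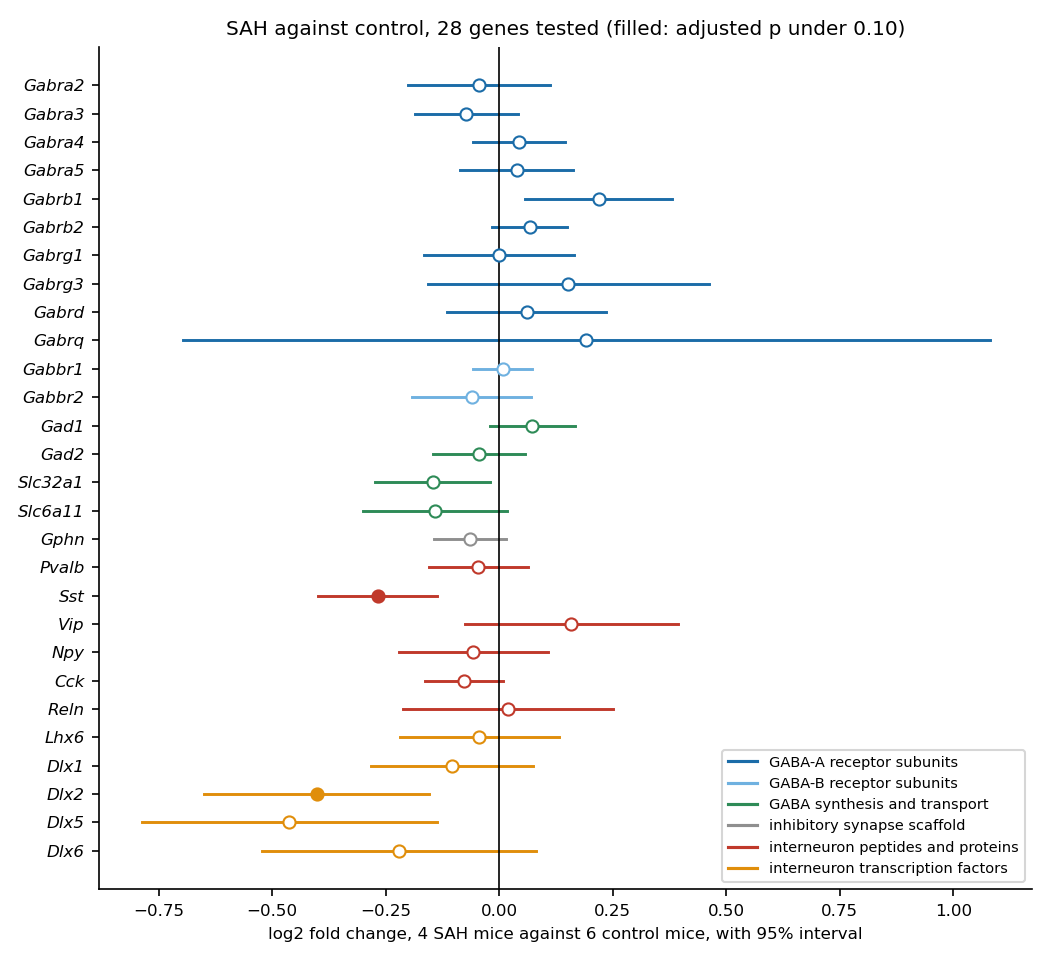
Log2 fold change of the 28 genes tested, 4 SAH mice against 6 control mice (x axis), with 95% intervals as lines and colours for the roles. Filled points, at Sst (−0.27) and Dlx2 (−0.40), had an adjusted p under 0.10, and most other points lie close to 0.

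Most other differences were small. The median log2 fold change over the 28 genes was −0.045, beside −0.0024 over all genes tested, and 17 of the 28 were below 0, as were 50.9% of all genes. For 20 of the 28 the 95% interval of the change lay within 20% of the control level in either direction, and for 27 it lay within 50%, the exception being Gabrq. Over all genes tested, 57.1% of intervals lay within 20%.

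Levels per length spanned more than 3 orders of magnitude. In control mice Sst stood highest at 375 ± 13.5 RPKM (SD, n = 6), followed by Cck at 297 ± 7.51, and then by the GABA-B subunit Gabbr1 at 162 ± 3.78. Gad1 (106 ± 3.71) and Gabra5 (104 ± 6.62) were next and did not differ beyond their spread. Npy had 76.1 ± 6.93 RPKM and Gabbr2 71.5 ± 4.96, again within their spread. The transcription factors lay between 2.29 RPKM (Dlx2) and 6.87 RPKM (Dlx1), and Gabrq (0.273) and Gabre (0.103) were the lowest. Cck is also made by some pyramidal cells, so its high level is not that of interneurons alone.

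**Figure D2:**
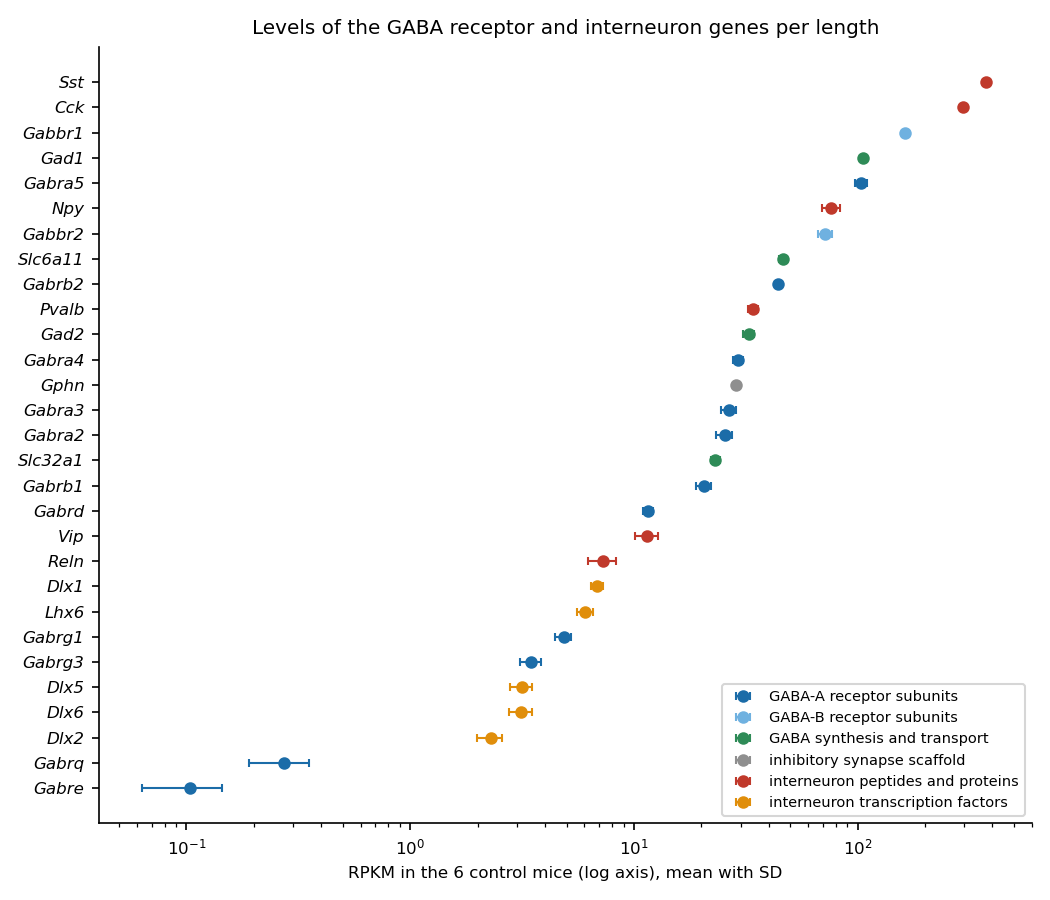
Mean RPKM of each of the 29 genes in the 6 control mice (x axis, log scale), with SD, coloured by role. Sst (375 RPKM) and Cck (297 RPKM) stand at the top, and Gabrq (0.273 RPKM) and Gabre (0.103 RPKM) far below the rest.

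The GABA-A subunits form the channel itself, and 10 of the 11 passed the filter of edgeR. In SAH against control edgeR called 0 of these 10, beside 4.68% of all genes. DESeq2, run without that filter, called 0 of 11, beside 5.29%. In edgeR 1 of the 10 (Gabrb1) had an unadjusted p under 0.05, beside 17.0% of all genes. Of the alpha subunits, which help to form the GABA and benzodiazepine sites, Gabra5 is the one best known from the hippocampus, where it forms extrasynaptic receptors on pyramidal cells. It was counted at 293, 293, 300 and 251 CPM in SAH mice 1 to 4, at 247, 287 and 295 CPM in Sham mice and at 268, 277 and 289 CPM in Naive mice. The groups overlapped throughout, and its log2 fold change of 0.04 had an interval from −0.09 to 0.16. Gabra2 (−0.05, interval −0.20 to 0.11), Gabra3 (−0.07, −0.19 to 0.04) and Gabra4 (0.04, −0.06 to 0.14) also spanned 0.

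The beta subunits carry part of the GABA site. Gabrb2 was the most counted of the 11 at 349 ± 13.5 CPM in SAH (SD, n = 4) and 333 ± 11.99 CPM in control (SD, n = 6), with a log2 fold change of 0.07 (interval −0.02 to 0.15). Gabrb1 was counted at 38.2, 42.2, 48.6 and 48.7 CPM in SAH mice 1 to 4, at 39.5, 34.7 and 35.2 CPM in Sham mice and at 39.2, 42.2 and 38.4 CPM in Naive mice. The upper 2 SAH mice, 3 and 4, lay above all controls and the lower 2 among them. Its log2 fold change was 0.22 (SE 0.076, interval 0.06 to 0.38, adjusted p = 0.157), short of the threshold. It passed without SAH mouse 1 (log2 fold change 0.28, adjusted p = 0.0496) and had a log2 fold change of 0.06 with SAH mice 3 and 4 and Sham mouse 7 left out (adjusted p = 0.838). Gabrb1 lies on chromosome 5 beside Gabra4, Gabra2 and Gabrg1 (mm9; Gabrg1 from 71142286 to 71233856, Gabra2 from 71352296 to 71487088, Gabra4 from 71960973 to 72049547, Gabrb1 from 72091255 to 72528483), and these 3 neighbours had log2 fold changes of −0.05 to 0.04.

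The remaining subunits set the receptor's location and drug response. Gabrd, the subunit of extrasynaptic receptors in dentate granule cells that carry tonic current, had 22.6 ± 3.15 CPM in SAH and 21.7 ± 1.10 CPM in control (log2 fold change 0.06, interval −0.11 to 0.24). Gabrg1 had 23.1 ± 2.31 and 23.1 ± 1.88 CPM, and Gabrg3 6.44 ± 1.61 and 5.78 ± 0.618 CPM (log2 fold change 0.15, interval −0.16 to 0.46). The rare Gabrq varied from 0.480 CPM in SAH mouse 4 to 3.46 CPM in SAH mouse 2, so that its interval ran from −0.70 to 1.08 and a difference between the groups was not detectable against this spread between mice. Gabre, with 1 to 22 counts per mouse and 0.0505 to 0.809 CPM, did not pass the filter of edgeR, and DESeq2 did not call it.

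GABA-B receptors are pairs of Gabbr1, which binds GABA, and Gabbr2, which couples to the G protein. Gabbr1 was among the steadiest of the 29 genes, with 735, 735, 741 and 715 CPM in SAH mice 1 to 4, 703, 730 and 718 CPM in Sham mice and 732, 754 and 730 CPM in Naive mice. The highest mouse was 1.07 times the lowest, and the interval of its log2 fold change (0.01) ran from −0.06 to 0.07. Gabbr2 had 274 ± 24.2 CPM in SAH and 286 ± 19.8 CPM in control (log2 fold change −0.06, interval −0.19 to 0.07).

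Of the genes that make and move GABA, 0 of 4 were called by edgeR or DESeq2, beside 4.68% and 5.29% of all genes. In edgeR 1 of the 4 (Slc32a1) had an unadjusted p under 0.05, beside 17.0% of all genes. Gad1, the enzyme that makes most of the GABA of the cell body, was counted at 354, 336, 390 and 357 CPM in SAH mice 1 to 4, at 343, 344 and 331 CPM in Sham mice and at 336, 364 and 333 CPM in Naive mice. The groups overlapped, and its log2 fold change was 0.07 (interval −0.02 to 0.17). Gad2, the enzyme of nerve terminals, had 178 ± 6.77 CPM in SAH and 183 ± 11.0 CPM in control (−0.04, interval −0.15 to 0.06).

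Slc32a1, which loads GABA into vesicles, was counted at 61.0, 65.0, 55.6 and 52.6 CPM in SAH mice 1 to 4, at 64.3, 63.9 and 62.35 CPM in Sham mice and at 64.8, 70.7 and 63.2 CPM in Naive mice. SAH mice 1, 3 and 4 were below all controls and SAH mouse 2 was not. The log2 fold change was −0.15 (SE 0.059, interval −0.27 to −0.02, adjusted p = 0.225). It passed only without SAH mouse 2 among the fits that left out 1 mouse (−0.20, adjusted p = 0.0746). Slc6a11, the GABA uptake carrier of astrocytes, had 171 ± 24.5 CPM in SAH and 189 ± 8.09 CPM in control, where the SAH mice 3 (147) and 4 (153) lay below all controls and the others among them (−0.14, interval −0.30 to 0.02, adjusted p = 0.35). Gphn, which encodes gephyrin, the scaffold that holds GABA-A receptors at the synapse, was the steadiest of the 28 genes among controls, at 97.3 ± 1.87 CPM beside 93.0 ± 3.70 CPM in SAH (−0.07, interval −0.14 to 0.01).

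Among the interneuron peptides and proteins, 1 of 6 (Sst) fell, beside 1.54% of all genes called lower. Sst was counted at 198, 208, 179 and 161 CPM in SAH mice 1 to 4, at 214, 218 and 226 CPM in Sham mice and at 228, 237 and 224 CPM in Naive mice. All 4 SAH mice were below all 6 controls, as was the case for 2 of the 28 genes (Sst and Dlx2) and for 2.37% of all genes tested, while the reverse order held for 0 of the 28 and for 2.83% of all genes. The means were 187 ± 20.7 CPM in SAH (SD, n = 4) and 225 ± 8.07 CPM in control (SD, n = 6), which is a difference of −16.9% (interval −24.1% to −9.04%) and a log2 fold change of −0.27 (SE 0.061, adjusted p = 0.0333). With each of the 10 mice left out in turn it stayed past the threshold, between −0.33 and −0.20.

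The 2 SAH mice with the lowest Sst, 3 and 4, were also the 2 SAH mice with the most choroid plexus RNA, whereas Sham mouse 7, with 850 CPM of these markers, had 226 CPM of Sst. With these 3 mice left out together, a comparison of 2 SAH against 5 control mice chosen after seeing the data, the log2 fold change of Sst was −0.14 (adjusted p = 0.224, unadjusted p = 0.00881), and 0 of the 28 genes were called. The part of choroid plexus RNA in the result was not tested. Within each mouse, the ratio of Sst CPM to Gad1 CPM was 0.452 to 0.619 in SAH and 0.6252 to 0.684 in control, without overlap. The ratio of Sst to Gad2 was 0.915 to 1.19 in SAH and 1.16 to 1.28 in control, with overlap. Ratios to Pvalb (5.56 to 7.16 in SAH, 6.87 to 8.16 in control) and Lhx6 (8.06 to 10.7 and 8.70 to 11.3) overlapped too. That to Npy did not, at 4.49 to 4.85 in SAH and 4.95 to 6.01 in control.

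The other class markers did not pass the test. Pvalb, of the fast-spiking basket and axo-axonic cells, was counted at 30.5, 29.1, 29.3 and 29.02 CPM in SAH mice 1 to 4, at 31.2, 29.4 and 32.1 CPM in Sham mice and at 27.98, 30.4 and 31.6 CPM in Naive mice. All 10 mice thus lay within a narrow band, and the log2 fold change of −0.05 had an interval from −0.16 to 0.06. Npy, made in part by the same cells as Sst, had 39.8 ± 3.69 CPM in SAH and 41.5 ± 3.77 CPM in control (−0.06, interval −0.22 to 0.11). Cck had 240.3 ± 12.7 and 253 ± 6.42 CPM (−0.08, interval −0.16 to 0.01).

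Vip, which marks interneurons that mostly inhibit other interneurons, had 19.6 ± 3.17 CPM in SAH and 17.5 ± 2.10 CPM in control (0.16, interval −0.08 to 0.39, adjusted p = 0.487). Reln, the secreted protein reelin of neurogliaform and other interneurons, had 86.1 ± 13.2 and 85.0 ± 11.9 CPM (0.02, interval −0.21 to 0.25). With SAH mice 3 and 4 and Sham mouse 7 left out, the log2 fold change of Vip was −0.03 and that of Reln −0.20.

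**Figure D3:**
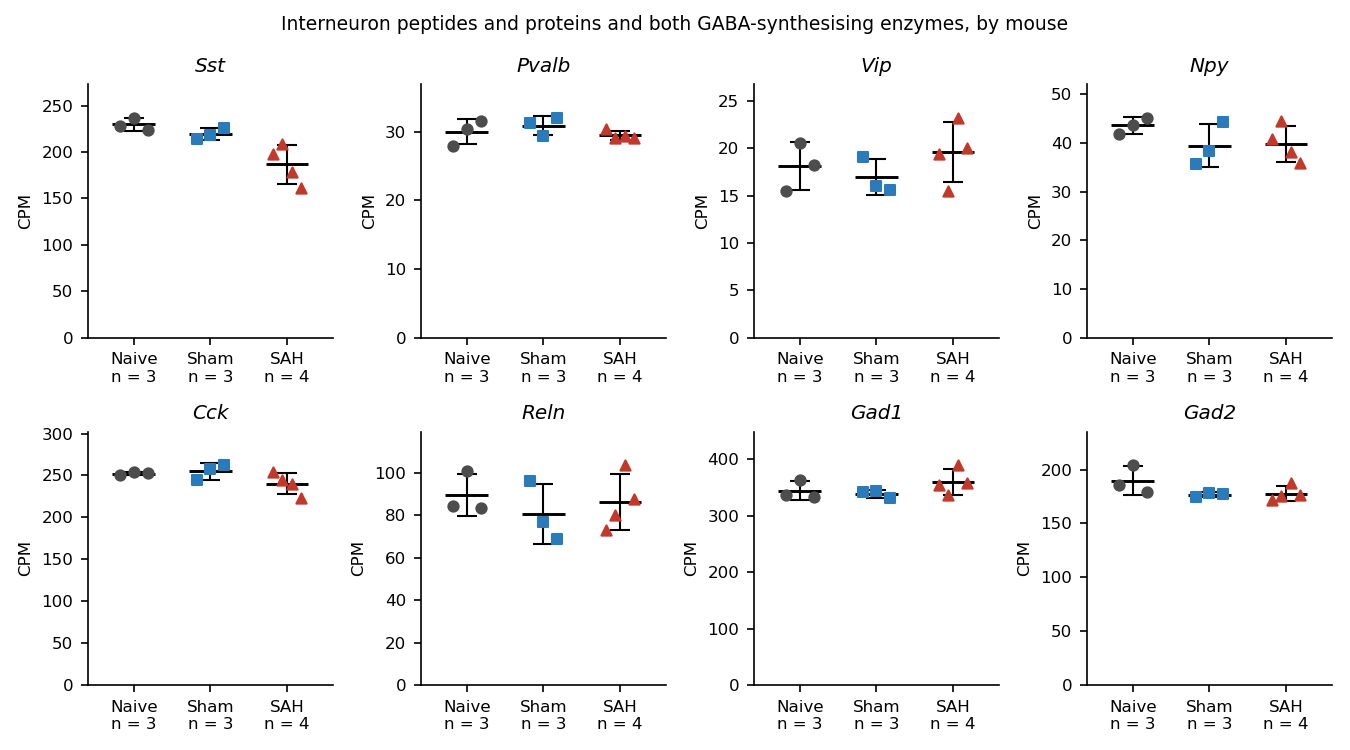
CPM (y axis, from 0) of 6 interneuron genes and both GABA-synthesising enzymes in each mouse, with the mean and SD of the Naive (n = 3), Sham (n = 3) and SAH (n = 4) groups. The 4 SAH mice lie between 161 and 208 CPM for Sst, below all controls, and overlap with controls in the other panels.

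The sequence before the start of Sst is shown because Sst carried the clearest difference and its promoter holds a well-known element, the cAMP response element (CRE), TGACGTCA, which is the same on both strands. The 250 bases upstream of the RefSeq start (promoter table of build GRCm38.p6) matched mm9 at 1 place, chr16:23890931-23891180, minus strand, directly before the start of the gene model in the files. Beside it are the 250 bases before Dlx2, at chr2:71384812-71385061, minus strand. Capitals mark the CRE or, in Dlx2, its shorter core TGACG.
Sst: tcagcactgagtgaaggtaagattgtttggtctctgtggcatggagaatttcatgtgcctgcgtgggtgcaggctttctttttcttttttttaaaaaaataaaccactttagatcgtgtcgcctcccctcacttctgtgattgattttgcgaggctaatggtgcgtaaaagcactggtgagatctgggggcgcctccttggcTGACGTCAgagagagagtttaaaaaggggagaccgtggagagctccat
Dlx2: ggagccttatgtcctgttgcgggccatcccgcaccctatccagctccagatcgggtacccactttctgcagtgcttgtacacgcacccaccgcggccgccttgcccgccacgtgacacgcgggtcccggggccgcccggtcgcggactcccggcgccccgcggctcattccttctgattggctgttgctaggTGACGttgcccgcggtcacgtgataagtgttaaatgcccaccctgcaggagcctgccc
The CRE of Sst begins 48 bases before the start. Of the 26 members with a promoter in the table, Sst alone held TGACGTCA, which 1.77% of the 27025 genes in the table hold in a promoter of the same length. The shorter TGACG, searched on both strands and part of every CRE, was in a promoter of 5 of the 26 members (Gad2, Sst, Vip, Cck and Dlx2) and of 19.8% of all genes. The homeobox core TAATTA was in that of Gabrg1 alone, beside 5.65% of all genes.

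Of the 5 transcription factors 1 (Dlx2) fell in SAH against control, beside 1.54% of all genes called lower. All 5 had a log2 fold change below 0, as did 50.9% of all genes, and 4 of the 5 were also below 0 in Sham against Naive. Dlx2 was counted at 4.11, 4.63, 4.45 and 3.92 CPM in SAH mice 1 to 4, at 4.95, 5.88 and 5.27 CPM in Sham mice and at 6.54, 6.43 and 4.88 CPM in Naive mice, from 85 to 174 counts per mouse. All SAH mice were below all controls, with a small gap between SAH mouse 2 and Naive mouse 10. The log2 fold change was −0.40 (SE 0.115, interval −0.65 to −0.15, adjusted p = 0.0882), and the adjusted p was over 0.10 in 7 of the 10 fits that left out 1 mouse (SAH mouse 1, 3 or 4, Naive mouse 8 or 9, or Sham mouse 6 or 7), reaching 0.217, and 0.102 with no filter on low counts. The log2 fold change was −0.38 (adjusted p = 0.358) with SAH mice 3 and 4 and Sham mouse 7 left out.

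Dlx5, a later factor of the same lineage, was counted at 3.19, 3.94, 2.22 and 3.44 CPM in SAH mice 1 to 4, at 4.70, 4.45 and 3.58 CPM in Sham mice and at 4.96, 4.83 and 4.16 CPM in Naive mice. SAH mouse 2 overlapped with Sham mouse 7 and the other SAH mice were below all controls. Its log2 fold change was −0.46 (SE 0.151, interval −0.79 to −0.14, adjusted p = 0.135), short of the threshold in edgeR and past it in DESeq2 and without SAH mouse 2 (−0.58, adjusted p = 0.0637). Dlx6, its neighbour on chromosome 6, had 2.86 ± 0.476 CPM in SAH and 3.35 ± 0.383 CPM in control (−0.22, interval −0.52 to 0.08). Dlx1, beside Dlx2 on chromosome 2, had 17.7 ± 2.35 and 19.1 ± 1.19 CPM (−0.10, interval −0.28 to 0.07), and the ratio of Dlx2 CPM to Dlx1 CPM was 0.229 to 0.255 in SAH and 0.267 to 0.320 in control, without overlap. Lhx6, which marks the interneurons born in the medial ganglionic eminence (Sst and Pvalb cells among them), had 21.0 ± 2.38 and 21.7 ± 1.81 CPM (−0.04, interval −0.22 to 0.13).

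Dlx genes are also active in young neurons that migrate through the adult forebrain, and 5 neuroblast markers, added once their values were known, were counted beside Dlx2. They were at 0 in no mouse and summed to 49.6 to 66.8 CPM in SAH and 73.9 to 87.7 CPM in control, without overlap. Sox11 (−0.48, adjusted p = 0.00961) and Dcx (−0.40, adjusted p = 0.0521), both of young neurons, fell, 2 of 5 beside 1.54% of all genes called lower. Dcx passed in 5 of the 10 fits that left out 1 mouse, its adjusted p being over 0.10 and up to 0.162 in the other 5 (each Naive mouse, SAH mouse 3 and SAH mouse 4), and it was 0.1003 with SAH mice 3 and 4 and Sham mouse 7 left out. Igfbpl1, Cd24a and Sp8 had log2 fold changes of −0.79 to −0.37 with adjusted p-values of 0.11 to 0.146. DESeq2 called 4 of the 5 lower (Sp8 not), beside 5.29% of all genes called in either direction. In SAH against Sham edgeR called 0 of 5 and DESeq2 1, Sox11, beside 0.720% and 1.53% of all genes. The part of these cells in the level of Dlx2 was not tested, and bulk RNA does not show whether they express it. Long RNAs run antisense to the Dlx pairs, and the counting, by strand, separates them. Dlx1as was at 19.8 to 29.8 CPM and Dlx6os1 at 16.9 to 25.9 CPM, with log2 fold changes of −0.06 (interval −0.28 to 0.16) and 0.08 (interval −0.17 to 0.33).

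**Figure D4:**
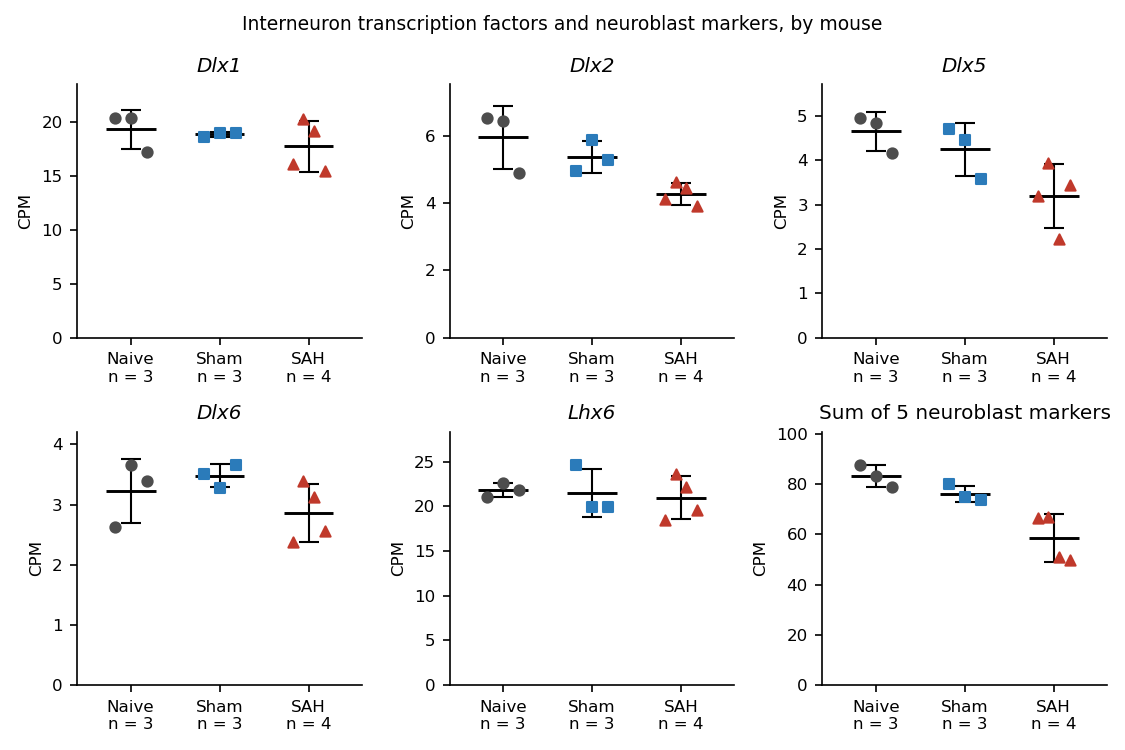
CPM (y axis, from 0) of 5 interneuron transcription factors and the sum of 5 neuroblast markers in each mouse, with group mean and SD. Dlx2 (3.92 to 4.63 CPM in SAH) and the neuroblast sum (49.6 to 66.8 CPM in SAH) lie below all controls, and Dlx1, Dlx5, Dlx6 and Lhx6 overlap with them.

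The 3 pairwise comparisons, from a fit of the 3 groups, ask whether SAH differs from surgery without bleeding and from no surgery, and share mice with one another and with the comparison above. In SAH against Sham, edgeR called 0 of the 28 genes and DESeq2 0 of the 29, beside 0.720% and 1.53% of all genes. Gabrb1, Sst, Dlx2 and Dlx5 (4 of 28) had an unadjusted p under 0.05, beside 9.69% of all genes. Sst had a log2 fold change of −0.23 there (interval −0.39 to −0.08, adjusted p = 0.258). Dlx2 had −0.33 (−0.62 to −0.04, adjusted p = 0.451) and Gabrb1 0.28 (0.09 to 0.47, adjusted p = 0.264).

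In SAH against Naive, 1 of the 28 genes was called, beside 2.99% of all genes (0.965% as lower). This was Sst, at −0.30 (interval −0.46 to −0.14, adjusted p = 0.0621), and without Naive mouse 8, 9 or 10 or Sham mouse 6 its adjusted p was over 0.10, up to 0.267, and it was 0.141 with the SAH and Naive mice alone in the fit. DESeq2 called Sst and Dlx2, beside 3.77% of all genes, and 4 of the 28 (Sst, Dlx2, Dlx5 and Slc32a1) had an unadjusted p under 0.05, beside 14.8%. Dlx2 had −0.48 (−0.77 to −0.18, adjusted p = 0.114) in edgeR, and Slc32a1 had −0.18 (−0.33 to −0.02, adjusted p = 0.264).

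In Sham against Naive, edgeR called 0 of the 28 genes and DESeq2 0 of the 29, beside 0.00661% and 0.0102% of all genes, and 0 had an unadjusted p under 0.05, beside 2.02%. Sst had a log2 fold change of −0.07 between these groups (interval −0.23 to 0.10) and Dlx2 of −0.15 (−0.45 to 0.16), and of the 28 genes 23 were below 0, beside 50.8% of all genes, with a median of −0.06. For 16 of the 28 the interval lay within 20% of the Naive level, as did 52.4% of intervals over all genes tested.

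Other genes of the same pathways, from lists drawn up with earlier results known, were counted in the same fit. Of 24 other GABA pathway genes tested in SAH against control, 1 rose and 1 fell (8.33% in either direction, beside 4.68% of all genes). Slc6a13, a GABA and taurine carrier found mostly in the meninges, was 12.3 CPM in SAH and 6.55 CPM in control (0.90, adjusted p = 0.0877). SAH mouse 3, at 5.96 CPM, lay among the controls (3.29 to 9.04 CPM). Of 7 meningeal fibroblast markers 6 rose as well, beside 3.13% of all genes called higher. The 7 summed to 103 to 179 CPM in SAH and 91.4 to 122 CPM in control. Slc12a2, the chloride importer whose activity sets the direction of GABA currents in young neurons, was 78.5 CPM in SAH and 90.4 CPM in control (−0.20, adjusted p = 0.089). The mature oligodendrocyte markers, of cells that also express Slc12a2, fell for 8 of 8, beside 1.54% of all genes called lower. They summed to 4905 to 6260 CPM in SAH and 7237 to 9999 CPM in control. The part of either cell type was not tested. With 1 mouse left out, both genes kept their call only without SAH mouse 3 or Sham mouse 6, and elsewhere their adjusted p reached 0.208 and 0.196. Slc6a13 was not called by DESeq2 (adjusted p = 0.113) or by the robust fit of edgeR (0.153), nor Slc12a2 when the 3 groups were fitted apart and both control groups averaged (0.109). In SAH against Sham, 0 of the 24 were called by edgeR (smallest adjusted p 0.247) or DESeq2. In SAH against Naive, Slc6a13 (1.34, adjusted p = 0.0319) and Slc6a12, the betaine and GABA carrier (2.37, adjusted p = 0.0408), rose, 2 of 24 beside 2.99% of all genes. Slc6a12 was counted at 0.839 to 2.06 CPM in SAH and, overlapping with these, at 0.578, 1.10 and 0.805 CPM in Sham mice 5 to 7. Naive mice had 0.0752, 0.154 and 0.552 CPM from 2, 3 and 13 counts. Slc6a13 had a mean of 8.26 CPM in Sham and 4.83 CPM in Naive mice, beside 12.3 CPM in SAH. The log2 fold change of Slc6a12 in SAH against Naive ran from 1.88 to 3.58 with 1 mouse left out. Without Naive mouse 8 or 9 both calls were lost, with adjusted p up to 0.215 for Slc6a12 and 0.164 for Slc6a13.

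Of 27 other interneuron genes tested, 1 rose and 1 fell in SAH against control (7.41% in either direction, beside 4.68% of all genes). Elfn1, a postsynaptic protein of Sst interneurons, was 33.0 CPM in SAH and 39.1 CPM in control (−0.24, interval −0.37 to −0.11, adjusted p = 0.0501), counted at 35.5, 34.4, 28.7 and 33.3 CPM in SAH mice 1 to 4 and at 37.1 to 41.4 CPM in control. All 4 SAH mice were below all controls, as for 2.37% of all genes tested. Penk, the enkephalin precursor, was 31.2 and 24.9 CPM (0.33, interval 0.15 to 0.51, adjusted p = 0.0566), and SAH mouse 1 at 26.4 CPM lay below Sham mouse 5 at 27.3 CPM. Leaving out SAH mouse 4 or either of Naive mice 8 and 9, both were over the threshold (adjusted p up to 0.124 and 0.175), and Penk also without Naive mouse 10. Both calls were also lost with SAH mice 3 and 4 and Sham mouse 7 left out (−0.17, adjusted p = 0.248, and 0.26, adjusted p = 0.229). In SAH against Sham, 0 of the 27 were called by edgeR (smallest adjusted p 0.337) or DESeq2. In SAH against Naive, Elfn1 (−0.28, adjusted p = 0.0776) and Penk (0.39, adjusted p = 0.0781) passed too, beside 2.99% of all genes. DESeq2 called these and also Calb2, the calcium-binding protein calretinin, as lower (−0.43, adjusted p = 0.162 in edgeR), and 9 of the 27 (8 of them lower) had an unadjusted p under 0.05, beside 14.8% of all genes. Of the 10 fits that left out 1 mouse, 7 lost the call of Elfn1 (adjusted p up to 0.309) and 8 that of Penk (up to 0.289), and both were lost with the SAH and Naive mice alone in the fit (0.165 and 0.155). Of 13 receptors of the interneuron peptides and of reelin, 0 were called in SAH against control by edgeR or DESeq2, and 2 had an unadjusted p under 0.05, beside 4.68% of all genes called by edgeR and 17.0% at that unadjusted p.

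Spread among the control mice was that of other genes, with a median coefficient of variation of 6.66% over the 28 genes and 6.65% over all genes tested, from 1.92% (Gphn) to 30.0% (Gabrq). SAH mouse 4 was the lowest of the 10 mice for 8 of the 28 genes, more than any other mouse. It was below the control mean of log2 CPM for 20. SAH mouse 3 was the lowest for 4 and the highest for 5. Naive mouse 9 was the highest for 6 and below the control mean of log2 CPM for 4.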

How the data were processed

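Counts of read pairs per gene were deposited by the authors for each mouse, without normalization. Per the study's methods and the submitters' processing notes, reads (stranded, depleted of ribosomal RNA) were aligned to mm9 with STAR and counted with featureCounts 1.6.2 over the union of exons of each gene. Pairs that mapped to several places or fell on several genes were discarded, which lowers genes with near copies. The 29 genes have 332 exons in the files, of which 91.6% start and end exactly as an mm9 exon in the reference annotation used here.

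From these counts edgeR 4.0.16 (R 4.3.3) was run with TMM scaling, filterByExpr (minimum count 10, minimum total 15), quasi-likelihood tests and p-values adjusted by Benjamini-Hochberg over all genes tested, with a threshold of 0.10. SAH was compared with Sham and Naive pooled, as in the study, and the groups pairwise in 1 fit of the 3 groups. The SE was the size of the log2 fold change divided by the square root of F, and the 95% intervals used the t distribution of that fit. DESeq2 1.42.0, other scalings, filters and thresholds, a robust fit and each mouse left out in turn were tried. The fits were tested on simulated data. Tables and figures were made with Python 3.11.15, pandas 2.3.3 and matplotlib 3.10.9.

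All 29 genes are named, and of other lists the genes past the threshold with the largest changes. Dlx1as, Dlx6os1 and the neuroblast genes were added once their values were known. The members and lists were chosen with earlier results of these data known. No library was a duplicate of another (lowest chi-square per degree of freedom 3.62 over 45 pairs). Libraries come from separate mice.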

Additional observations from a re-analysis of the deposited data

Results flagged for a closer look

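Each of the 29 genes was checked in the SAH and the control mice for a mouse far from the rest of its group, and 3 of 58 such checks were past the limit. Chance flags about 1 in 20. Gabra5 stood at 251.4 CPM in SAH mouse 4, with the next SAH mouse at 293 CPM. Gad2 stood at 204 CPM in Naive mouse 9, with the next control mouse at 186 CPM. Slc32a1 stood at 70.7 CPM in the same Naive mouse, with the next at 64.8 CPM.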

How the results depend on the processing

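No paired analysis was possible because the groups share no replicate numbers. In SAH against control, the 2 members called lower became 1 at an adjusted p under 0.05 and with no filter, and 0 with SAH mice 3 and 4 and Sham mouse 7 left out, an alternative chosen after seeing the data. All genes called higher and lower (470 and 231) became 277 and 92 at an adjusted p under 0.05 and 257 and 73 with those 3 mice left out, and DESeq2 called 397 lower. With 1 mouse left out at a time, 0 to 1 members were called higher and 1 to 4 lower, and 223 to 686 genes higher and 85 to 407 lower. In SAH against Sham (109 genes), 49 were called at an adjusted p under 0.05, 299 by DESeq2, 182 with no filter and 12 with only the mice of both groups, and 6 to 215 with 1 mouse left out, with 0 to 1 members higher and 0 to 1 lower. In SAH against Naive (453 genes, 1 member), these were 260 and 0 at an adjusted p under 0.05, 736 and 2 by DESeq2, 282 and 0 with only the mice of both groups, and 109 to 683 and 0 to 2 with 1 mouse left out. In Sham against Naive (1 gene), 2 were called by DESeq2, 3 with only the mice of both groups and 0 to 1 with 1 mouse left out. The cause was not tested.

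Some members that were not called changed sign. Gabrg1 (−0.0010) was 0.0013 with DESeq2's size factors, 0.0043 with library size alone, 0.0013 with at least 10 counts in every mouse, 0.11 with the 3 mice left out, and −0.0611 to 0.0428 with 1 left out. With the 3 mice left out, Gabrg3 was −0.17, Slc6a11 0.0109, Vip −0.0336, Npy 0.0666 and Reln −0.20. With 1 left out, Gabra2 ranged from −0.11 to 0.0130, Gabrq from −0.53 to 0.51, Gabbr1 from −0.0026 to 0.0183, Reln from −0.0784 to 0.0890 and Lhx6 from −0.11 to 0.0115. Depth limits Gabre, which had too few counts to pass the filter of edgeR, and with 3 or 4 mice a group the pairwise intervals are wider than those above.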
